A study of Homo sapiens with 9 samples.

Results

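The genes described here are 10 genes of autophagy and mitophagy that act during erythroid maturation, namely BNIP3L, BNIP3, SQSTM1, GABARAP, GABARAPL1, GABARAPL2, MAP1LC3B, WIPI1, ULK1 and FOXO3. They were chosen by name, out of 22384 Gencode v44 genes with at least 1 read pair. For each gene, the read pairs counted were those whose 5′ and 3′ ends both lay on the strand of the gene and within 1 kb of its annotated body. The data are TIF-Seq2 libraries of K562, an established erythroleukemia cell line that carries the BCR-ABL1 fusion kinase. Cells were exposed for 24 h either to 1 µM imatinib, an inhibitor of that kinase, or to DMSO, the vehicle, with 2 biological replicates per condition and 4 libraries in all. Every library comes from this single cell line, so nothing here covers other erythroid cells. In TIF-Seq2 a full-length cDNA of a capped and polyadenylated RNA is circularized, and sequencing over the join then reads out the transcription start site (TSS) and the poly(A) site (PAS) of 1 and the same molecule. The libraries are of bulk cells, so fewer expressing cells and less RNA per cell cannot be told apart.

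Autophagy encloses cytoplasm in a double membrane, the autophagosome, and delivers it to the lysosome. Proteins of the Atg8 family, which in human cells are the LC3 and GABARAP proteins, are coupled to that membrane, and selective receptors bind both a cargo and an Atg8 protein. Maturing red cells lose their mitochondria in this way, and BNIP3L (also called NIX), a receptor in the outer mitochondrial membrane, is needed for it in reticulocytes.

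Each library held from 2263121 to 5135829 read pairs, with the second imatinib library the smallest. The label of the cells was checked against marker genes. All 8 erythroid markers listed were found, and their summed level was 4886 and 5917 CPM in DMSO against 16581 and 16809 CPM after imatinib. CPM are read pairs per 1000000 of the library total, normalized by TMM, and are not divided by gene length. HBG2 and HBZ gave most of that sum, with 8397 and 9485 CPM for HBG2 and 5975 and 5208 for HBZ after imatinib. Of these 8 markers 6 were called higher after imatinib and none lower. Over all genes tested 8.69% were called higher and 6.15% lower. GATA1 (log2 fold change -0.07) and TAL1 (1.40) were not called. Much erythroid RNA thus moved with the treatment, and the part of this in the results below was not tested. The 4 megakaryocyte markers summed to 0.889 to 4.42 CPM, with GP9 at 0. Of the monocyte markers CD14 was at 0 and LYZ gave nearly all the sum, which was 34.7 to 129. The lymphoid markers CD3E and MS4A1 were at 0.

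Of the 10 genes, 9 had enough read pairs to be tested between imatinib and DMSO and 3 were called at an adjusted p under 0.05, all higher after imatinib: BNIP3L, WIPI1 and FOXO3. Over all 12135 genes tested the share called was 14.8%, and 8.69% were called higher (1054 genes) and 6.15% lower (746), a split that was 692 higher and 734 lower with DESeq2. The median log2 fold change was 0.45 over the 9 genes and 0.03 over all genes tested. Among the 9 genes, 5 had both imatinib libraries above both DMSO libraries, the 3 called genes together with GABARAP and SQSTM1. The share of all 12135 genes with that order was not counted, so no excess is read from these 5. All these tests are by the quasi-likelihood method of edgeR, with p values adjusted by Benjamini-Hochberg over all genes, and log2 fold changes are imatinib over DMSO with their standard errors. Only BNIP3L stayed under the threshold in every alternative fit that was run.

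**Figure D1:**
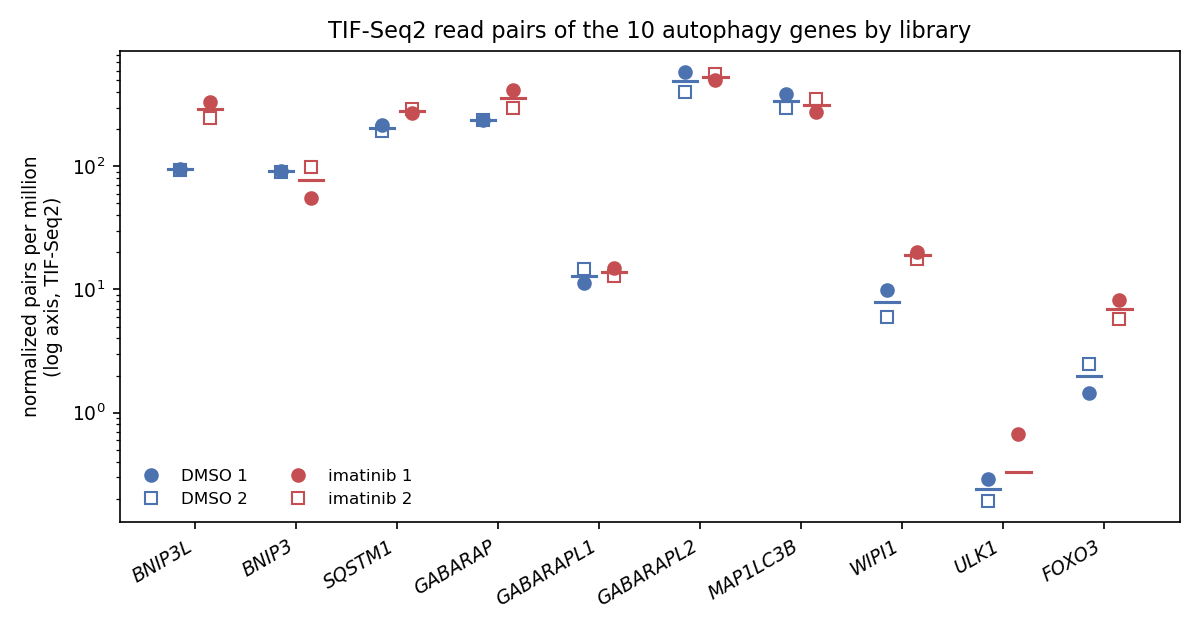
Normalized TIF-Seq2 read pairs in CPM (log axis) for each of the 10 genes, with 1 point per library (blue DMSO, red imatinib, filled circles replicate 1, open squares replicate 2) and a line at the mean of each condition. BNIP3L sat at 93.8 and 95.9 in DMSO and at 249 and 331 after imatinib, while the points of BNIP3, GABARAPL1, GABARAPL2 and MAP1LC3B overlapped between conditions. A library at 0, as for ULK1, has no point, and the values are not divided by transcript length, so genes are not to be ranked by height.

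The mitophagy receptors are given first. BNIP3L (ENSG00000104765.16, chr8:26383054-26505636 in hg38, plus strand) was counted 332 and 488 times in the DMSO libraries and 1497 and 560 times in the imatinib libraries. The normalized levels were 95.9 and 93.8 CPM in DMSO against 331 and 249 after imatinib. Both imatinib libraries lay far above both DMSO libraries, and the first imatinib library was the higher one. The log2 fold change was 1.61 ± 0.27 with an adjusted p of 0.0071.

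BNIP3 (ENSG00000176171.12, chr10:131967684-131981967, minus strand) is the paralog of BNIP3L, a receptor in the same membrane that is best known as a gene induced by low oxygen. Its normalized levels were 92.4 and 89.6 CPM in DMSO and 55.7 and 98.2 after imatinib. The imatinib libraries stood on either side of the DMSO libraries, and the log2 fold change of -0.25 ± 0.32 had an adjusted p of 0.64. Leaving out the first imatinib library turned the value to 0.13. A difference between the 2 genes was not tested.

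SQSTM1 (ENSG00000161011.20, chr5:179806398-179838078, plus strand) encodes p62, a receptor that links ubiquitin-marked cargo to the autophagosome. Its levels were 219 and 194 CPM in DMSO and 271 and 292 after imatinib. The groups did not overlap, but the log2 fold change of 0.45 ± 0.25 had an adjusted p of 0.25.

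The 4 Atg8 genes measured were all detected, and none was called at the level of the whole gene. GABARAP (ENSG00000170296.10, chr17:7240008-7242449, minus strand) gave 237 and 236 CPM in DMSO against 421 and 300.045 after imatinib. The imatinib libraries were both higher and far apart from each other. The log2 fold change was 0.61 ± 0.27 with an adjusted p of 0.15, and the value turned on the imatinib libraries. Without the second it was 0.80 with an adjusted p of 0.023, and without the first 0.36 with an adjusted p of 0.41.

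GABARAPL1 (ENSG00000139112.11, chr12:10212458-10223128, plus strand), an Atg8 protein that the BNIP3L protein binds, gave 11.3 and 14.6 CPM in DMSO and 15.0 and 12.9 after imatinib. GABARAPL2 (ENSG00000034713.8, chr16:75566375-75577881, plus strand), also known as GATE-16, gave 583 and 401 in DMSO and 501 and 559.6 after imatinib. MAP1LC3B (ENSG00000140941.14, chr16:87383953-87404779, plus strand), whose product LC3B is the usual marker of autophagosomes, gave 385 and 298 in DMSO and 277 and 353 after imatinib. In all 3 genes the libraries of the conditions overlapped, the log2 fold changes were 0.11 ± 0.33, 0.11 ± 0.27 and -0.12 ± 0.27, and each sign turned when 1 library was left out.

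WIPI1 (ENSG00000070540.13, chr17:68420948-68457513, minus strand) encodes a protein that binds phosphatidylinositol 3-phosphate on the forming autophagosome. It rested on 196 read pairs, 34 and 31 in DMSO and 91 and 40 after imatinib, or 9.82 and 5.96 against 20.1 and 17.8 CPM. The groups were separate, and the log2 fold change was 1.29 ± 0.37 with an adjusted p of 0.046. The call was lost without the first DMSO library (adjusted p 0.060), without the second (0.94 on the log2 scale, adjusted p 0.40) and with DESeq2 (adjusted p 0.14).

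ULK1 (ENSG00000177169.10, chr12:131894622-131923150, plus strand), the kinase that starts autophagy, was covered by 5 read pairs in all, 1 in each DMSO library, 3 in the first imatinib library and none in the second. No difference in ULK1 could have been detected at this depth, and a library with 0 pairs allows up to 3.

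FOXO3 (ENSG00000118689.15, chr6:108559835-108684774, plus strand) encodes a transcription factor that activates autophagy genes. Its 68 read pairs were 5 and 13 in DMSO and 37 and 13 after imatinib, and the normalized levels were 1.44 and 2.50 against 8.18 and 5.78 CPM. The log2 fold change was 1.79 ± 0.48 with an adjusted p of 0.038. The call was lost with DESeq2 (adjusted p 0.19) and when the first DMSO (0.23), the second DMSO (0.11) or the first imatinib library (0.15) was left out. Only 19.1% of the 68 pairs began within 200 bp of an annotated FOXO3 start, and 16.2% lay within 200 bp of annotated ends on both sides. The median distance between the ends of a pair was 1.63 kb. Most of the count is thus of pairs that match no annotated start of the gene. The 3′ ends of FOXO3, described last, also bear on this count.

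**Figure D2:**
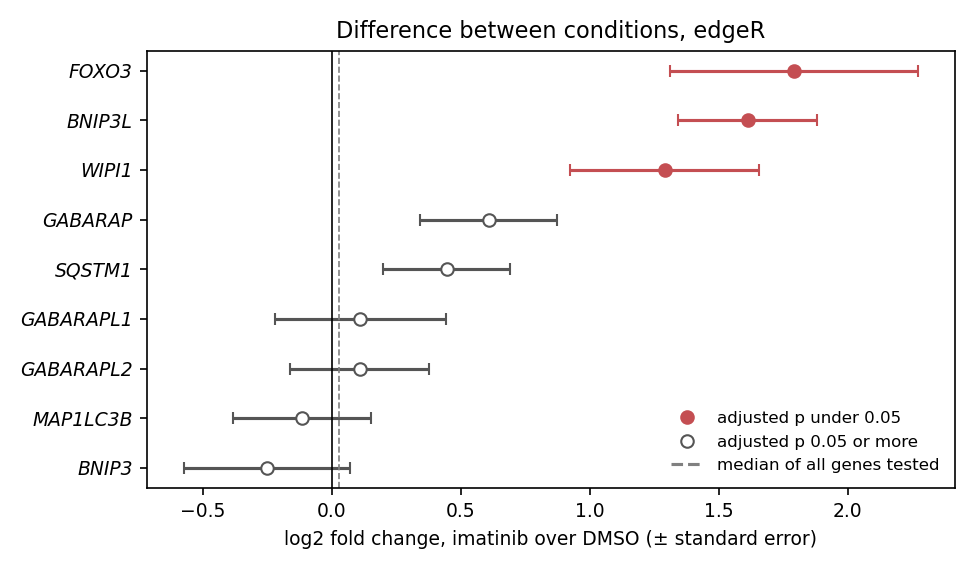
Log2 fold change of imatinib over DMSO for the 9 genes tested, with the standard error as a bar, filled red where the adjusted p was under 0.05, and with a dashed line at the median of all genes tested (0.03). FOXO3, BNIP3L and WIPI1 lie between 1.29 and 1.79, and the bars of GABARAPL1, GABARAPL2, MAP1LC3B and BNIP3 reach across 0.

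The wider autophagy pathway was read from a list of 73 other genes in 10 roles, of which 60 could be tested. Of these, 5 were called higher after imatinib and 1 lower, 6 of 60 against the share of 14.8% over all genes, and the median log2 fold change of the 60 was 0.15. The 8 tested genes of the class III PI3K complex and the 9 tested genes of Atg8 conjugation held no call, with medians of 0.07 and -0.16.

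Of the 6 genes tested under the role of selective receptors, 3 were called, all higher, against 8.69% called higher over all genes. Their median of 1.05 was the highest of any role, and a difference between roles was not tested. The receptors BNIP3L, BNIP3 and SQSTM1 were not in this role, and of them only BNIP3L was called. FUNDC1, FKBP8 and BCL2L13 were listed as other mitophagy factors and were not called (log2 fold changes of -0.41, 0.80 and 0.43). The share of 3 of 6 thus depends on how the list was drawn. OPTN, optineurin, a receptor for damaged mitochondria, was counted 19 and 35 times in DMSO and 216 and 69 times after imatinib, with a log2 fold change of 2.68 ± 0.37 and an adjusted p of 0.0037. NCOA4, the receptor that delivers ferritin to the lysosome, was counted 495 and 817 times against 2709 and 1070 times, with a log2 fold change of 1.84 ± 0.26 and an adjusted p of 0.0041. NBR1, a receptor related to p62, had a log2 fold change of 1.30 ± 0.29 with an adjusted p of 0.019. That adjusted p was 0.054 without the first DMSO library and 0.23 without the second.

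Outside the receptors, PINK1, the kinase that marks damaged mitochondria, was counted 40 and 42 times in DMSO and 233 and 69 times after imatinib, with a log2 fold change of 2.09 ± 0.38 and an adjusted p of 0.0092. CTSD, the lysosomal protease cathepsin D, had a log2 fold change of 1.19 ± 0.29 with an adjusted p of 0.028, which was 0.20 without the first DMSO library and 0.18 without the second. ATG101, a subunit of the ULK1 kinase complex, was the gene called lower, with 103 and 193 pairs against 63 and 13. Its log2 fold change was -1.69 ± 0.41 with an adjusted p of 0.027. OPTN, NCOA4, PINK1 and ATG101 stayed under the threshold whichever library was left out.

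The genes whose levels over the 4 libraries were closest to those of BNIP3L, by the distance between centred log2 levels, were SPSB3, LYPLAL1-DT, HOMEZ, FAM53B and LINC01876. Their distances ran from 0.0714 to 0.123 and their log2 fold changes from 1.62 to 1.96. With 4 libraries this is a description of 4 values per gene.

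The linked ends give isoforms as well as levels. A transcript isoform boundary (TIF) is a TSS cluster linked to a PAS cluster by at least 4 read pairs, and the 10 genes held 46 of them, in 8 genes, with none for ULK1 and FOXO3. At both ends, 29 of the 46 lay within 200 bp of an annotated transcript of the gene. BNIP3L had 13, BNIP3 10, SQSTM1 8, MAP1LC3B 7, GABARAP and GABARAPL2 3 each, and GABARAPL1 and WIPI1 1 each. Of the 28 that could be tested 8 were called, 7 higher and 1 lower after imatinib, all in BNIP3L and GABARAP. Over all 16020 TIFs tested 11.6% were called, 6.58% higher and 4.99% lower.

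**Figure D3:**
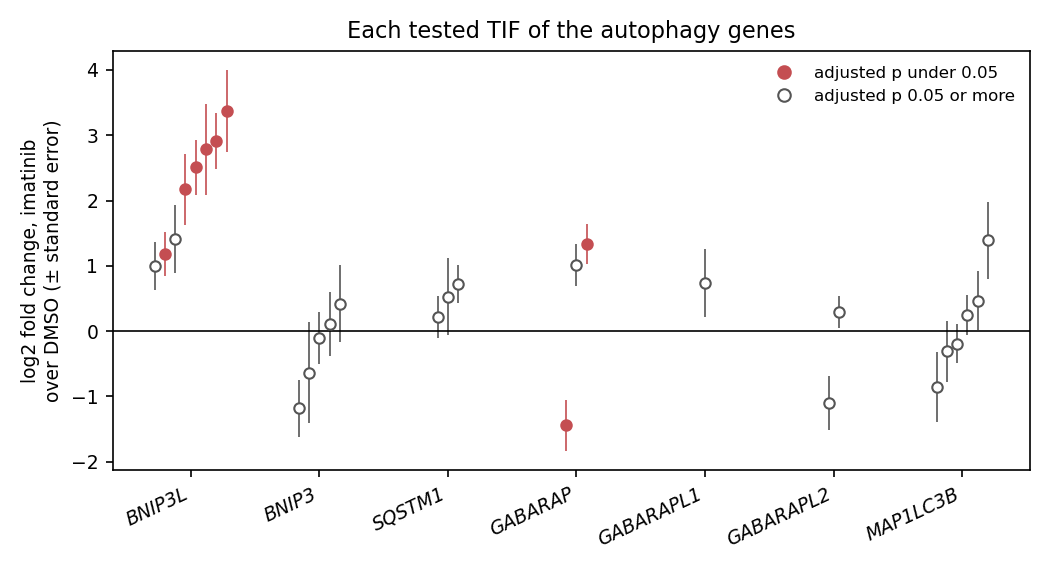
Log2 fold change of imatinib over DMSO for each of the 28 tested TIFs, grouped by gene, with standard errors as bars and TIFs with an adjusted p under 0.05 filled red. In BNIP3L 6 of 8 TIFs were called and all lay above 0, from 1.00 to 3.37, and GABARAP had 1 called TIF above 0 (1.34) and 1 below (-1.44).

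BNIP3L was read from a start in exon 1 of its canonical transcript BNIP3L-201 and from a start in intron 1. The upstream start peaked at position 26383068 on chromosome 8, 14 bp from an annotated start, and lay 63 bp before the canonical start codon. The inner start peaked at 26390393, 7.33 kb further down, within the first exon of the annotated transcript BNIP3L-202. That transcript has its annotated start codon in the next exon, and its coding sequence spans 179 codons where the canonical one spans 219, so a molecule that begins there lacks the canonical start codon. A minor start at 26391328 lay in exon 2.

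Both the upstream and the inner start of BNIP3L rose after imatinib. Summed over all poly(A) sites, pairs from the upstream start were 176 and 221 in DMSO and 446 and 203 after imatinib, with a log2 fold change of 1.10 ± 0.28 and an adjusted p of 0.031. Pairs from the inner start and from exon 2 together were 57 and 94 in DMSO and 542 and 183 after imatinib. The inner start alone had a log2 fold change of 2.62 ± 0.35 with an adjusted p of 0.0026.

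As a share of the BNIP3L pairs in TIFs, the inner start held 23.6% and 29.2% in DMSO and 53.3% and 45.1% after imatinib, or 26.4% ± 3.96 against 49.2% ± 5.84 (SD, n = 2). The upstream start held 75.5% and 70.2% against 45.1% and 52.6%. The shares of the conditions were separate for both starts. Tested as usage, that is, each start against the other starts of its gene, the inner start had a log2 difference of 0.92 with an adjusted p of 0.17, which ran from 0.080 to 0.85 when each library was left out, so this test did not call a change in the balance of the starts. Over all genes 5.96% of 1694 starts were called in that test.

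**Figure D4:**
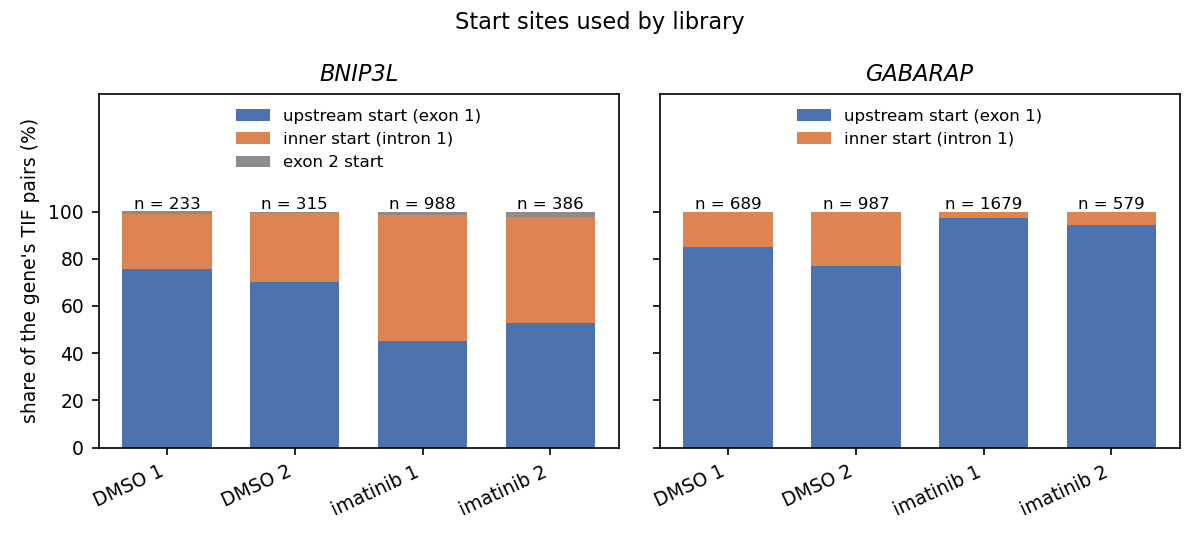
Share of the read pairs in TIFs (percent) from each start of BNIP3L (left) and GABARAP (right), 1 bar per library with the number of pairs above it. The inner start of BNIP3L takes 23.6% and 29.2% in DMSO and 45.1% and 53.3% after imatinib, and the inner start of GABARAP takes 15.0% and 23.1% in DMSO and 2.80% and 5.53% after imatinib.

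Among single TIFs of BNIP3L, the most used one ran from 26383068 to the PAS at 26410991, with 89 and 121 pairs in DMSO and 242 and 100 after imatinib. Its log2 fold change of 1.18 ± 0.34 had an adjusted p of 0.049, which rose above 0.05 with DESeq2 (0.065) and without the first imatinib library (0.072) or either DMSO library (0.31 and 0.36). The next, from the inner start at 26390393 to the same PAS, had 36 and 59 pairs against 313 and 88, with 2.51 ± 0.42 and an adjusted p of 0.0073. A neighbouring start peak at 26390413 had 16 and 27 pairs against 177 and 59, with 2.91 ± 0.43 and an adjusted p of 0.0046.

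The longest of the called inner forms, from 26390393 to the far PAS at 26413120, had 2 and 3 pairs in DMSO and 19 and 17 after imatinib, with a log2 fold change of 3.37 ± 0.63 and an adjusted p of 0.011. These 3 inner TIFs kept their calls in every alternative in which they were defined. The call was lost on leaving out either DMSO library for the 2 other called forms, 26383039 to 26413120 (2.17 ± 0.54, adjusted p 0.031, then 0.15 and 0.14) and 26391328 to 26410991 (2.78 ± 0.69, adjusted p 0.030, then 0.21 and 0.38), and for the last also without the second imatinib library (0.18). With DESeq2 their adjusted p values were 0.097 and 0.22. With at least 2 tags in place of the power law, the last had a log2 fold change of 1.46 with an adjusted p of 0.071. The TIF from 26383039 to 26410991 had 62 and 79 against 147 and 58, with 1.00 ± 0.37 and an adjusted p of 0.11.

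At the 3′ end of BNIP3L most molecules stopped at 26410991, 579 bases after the stop codon, and fewer at 26413120, 2.71 kb after it. The near site held 88.0% and 91.4% of the pairs in DMSO and 90.2% and 81.1% after imatinib. The far site held 9.44% and 7.94% against 8.30% and 18.1%, so the second imatinib library stood apart from the other 3, and the usage test gave adjusted p values of 1.00 for both sites. Counted by site, the pairs at the near site rose with a log2 fold change of 1.70 ± 0.31 and those at the far site with 2.24 ± 0.41, each with an adjusted p of 0.012.

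GABARAP also had a start in exon 1 and a start in intron 1, and a single poly(A) site. The upstream start peaked at 7242449 on chromosome 17, the annotated first base of the canonical transcript GABARAP-201, 119 bp before its start codon. The inner start peaked at 7241819, exactly the first base of the annotated transcript GABARAP-206, whose coding sequence of 27 codons compares with 117 in the canonical transcript. It lay 630 bp downstream of the upstream start and 511 bp beyond the canonical start codon.

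The 100 bases before each of these starts, and the start itself in capitals, are shown because the 2 starts moved in opposite directions. The first window is chr17:7242449-7242549 and the second chr17:7241819-7241919, both read on the minus strand of hg38, and G and C make up 65.3% and 46.5% of them.
GABARAP upstream start: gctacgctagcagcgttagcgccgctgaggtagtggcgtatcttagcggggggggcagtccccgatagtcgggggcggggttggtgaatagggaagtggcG
GABARAP inner start: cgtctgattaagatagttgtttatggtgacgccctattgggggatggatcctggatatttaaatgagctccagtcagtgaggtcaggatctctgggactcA

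The pairs from the upstream start, joined within 200 bp, rose with a log2 fold change of 1.03 ± 0.29 and an adjusted p of 0.042. Those from the inner start fell, with 103 and 228 pairs in DMSO and 47 and 32 after imatinib, a log2 fold change of -1.54 ± 0.37 and an adjusted p of 0.024. The inner start held 15.0% and 23.1% of the GABARAP pairs in TIFs in DMSO and 2.80% and 5.53% after imatinib. Every imatinib library was below every DMSO library.

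The usage test called this difference, with a log2 difference of -2.32 and an adjusted p of 0.0065 for the start, where 2.6% of starts were called lower over all genes, and of 0.0085 for the TIF, where 1.71% of the 14232 TIFs in that test were called, 1.05% lower. It was the only usage call among the 27 TIFs of these genes that entered it. The adjusted p of the start ran from 0.018 to 0.21 when each library was left out, and that of the TIF was above 0.05 without the first DMSO (0.19), the second DMSO (0.55) or the first imatinib library (0.10).

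Of the 3 GABARAP TIFs, the form from 7242449 to 7240427 had 401 and 500 pairs in DMSO and 1047 and 320 after imatinib, with a log2 fold change of 1.01 ± 0.33 and an adjusted p of 0.073, and with 0.56 on the log2 scale without the first imatinib library. The form from 7242360 to the same site had 185 and 259 against 585 and 227, with 1.34 ± 0.31 and an adjusted p of 0.023. The form from the inner start had -1.44 ± 0.39 with an adjusted p of 0.041. The last 2 calls were lost without the first DMSO library (adjusted p 0.16 and 0.066) and without the second (0.18 and 0.40).

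All but 4 of the 4630 read pairs of GABARAP ended at the site at 7240427, 427 bases after the stop codon. The 30 bases up to it, chr17:7240427-7240456 on the minus strand, are shown as the case of a single site, with the poly(A) hexamer AATAAA in capitals beginning 18 bases from the end.
GABARAP site: aggaggcacatcAATAAAgaggaaaccacc

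GABARAPL2 had a main and a minor poly(A) site in its last exon, 335 bp apart, 511 and 176 bases after the stop codon. The nearer, minor site held 2.78% and 3.35% of the pairs in DMSO and 1.22% and 1.11% after imatinib, separate between conditions. Its TIF had 52 and 65 pairs in DMSO and 25 and 13 after imatinib, with a log2 fold change of -1.10 ± 0.41 and an adjusted p of 0.11, and the usage test over joined sites gave an adjusted p of 0.35, where 0.202% of 4461 sites were called over all genes. The main TIF had 1810 and 1867 pairs against 2021 and 1157, a log2 fold change of 0.29 ± 0.25. A TIF from a start in exon 2, at 75566901, to the main site had 11 and 7 pairs against 8 and 4 and was not tested. The minor site has no AATAAA or ATTAAA in the 30 bases before it, chr16:75577516-75577545, while the main site, chr16:75577851-75577880, has AATAAA 23 bases from its end.
GABARAPL2 minor site: gtttccttagactagtaaattatcatacag
GABARAPL2 main site: aattaacAATAAAaattctcttataaaggc

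MAP1LC3B had a near and a far poly(A) site 1.41 kb apart in its last exon, and 1 main start at 87392336, the annotated first base of MAP1LC3B-201. The far site at 87404773 held 49.7% and 49.4% of the pairs in TIFs in DMSO and 52.7% and 56.4% after imatinib. Both imatinib libraries lay above both DMSO libraries, and the usage test gave an adjusted p of 1.00. The most used TIF, from 87392336 to 87404773, had 395 and 427 pairs in DMSO and 368 and 288 after imatinib, with a log2 fold change of 0.25 ± 0.31, and the next, to 87403367, had 337 and 361 against 283 and 151, with -0.19 ± 0.30. The TIF from 87392336 to 87403396 had 75 and 90 against 62 and 81, with 0.46 ± 0.45, and that from 87392415 to 87404773 had 22 and 27 against 16 and 11, with -0.31 ± 0.47, so none of the 4 was called.

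The near site of MAP1LC3B is followed by A-rich genomic sequence. Over all its pairs, including those left out of TIFs, the near site peaked at 87403375, and 46.6% of its 3052 pairs had 7 or more A among the 10 bases after the 3′ end, against 0.115% of the 1734 pairs at the far site. The oligo(dT) primer can begin on such a stretch inside an RNA, so the pairs with 7 or more A were left out of TIFs. Whether the pairs left out arose in that way was not tested. The near site has AATAAA 28 bases before it. The far site has ATTAAA 13 bases before it, and also AATAAA further upstream within the 30 bases before it. Over all pairs the near site held 61.9% and the far site 35.2%, so the near site was the more used one before this filter. Each window below holds the last 20 bases of the transcript and then, in capitals, the 10 bases after its 3′ end, with 7 and 4 A. They are chr16:87403356-87403385 and chr16:87404754-87404783.
MAP1LC3B near site: actttgcattctaagttgccAATAAAATAG
MAP1LC3B far site: aggcacaattaaaaactgtcATCAAAGCCC

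BNIP3 was read from 1 start region that peaked at 131981923, with 94.8% of its pairs, and ended at several sites in its last exon. The farthest site at 131967687, 837 bases after the stop codon, held 50.5% and 54.0% of the pairs in TIFs in DMSO and 53.5% and 62.1% after imatinib, with the rest at sites between 160 and 445 bases after the stop codon. The groups overlapped, and the usage test gave an adjusted p of 1.00. Among its TIFs the one to the site nearest the stop codon, at 131968364, had 40 and 51 pairs in DMSO and 19 and 9 after imatinib, with a log2 fold change of -1.18 ± 0.44 and an adjusted p of 0.11, which was -0.44 with at least 2 tags in place of the power law. The most used TIF, to 131967687, had 69 and 110 against 55 and 52, with -0.10 ± 0.40. The TIF to 131968079 had 29 and 41 pairs against 21 and 27, with 0.11 ± 0.49, and that from 131981956 to 131967687 had 14 and 10 against 11 and 11, with 0.42 ± 0.58.

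SQSTM1 started mainly at 179820905, the annotated first base of SQSTM1-202, with 95.5% and 94.7% of the pairs in TIFs in DMSO and 92.1% and 95.1% after imatinib. A minor start at 179807009, 13928 bp upstream of the canonical start codon, held 4.11% of the pairs in TIFs in the first imatinib library. In the other libraries it held 0.826% to 1.86%. TIFs took in only 59.8% of the SQSTM1 pairs. Over all pairs, with starts joined within 10 bp, the group that peaked at 179820905 held 62.2%. The group at 179807009 held 6.49%, with 38 and 50 pairs in DMSO and 120 and 29 after imatinib. At the 3′ end 97.3% to 98.8% of the pairs in TIFs stopped at 179837252, 659 bases after the stop codon. The most used TIF had 317 and 369 pairs in DMSO and 459 and 310 after imatinib, with a log2 fold change of 0.72 ± 0.29 and an adjusted p of 0.14, and a second one from a start peak at 179820876 had 132 and 180 against 156 and 92, with 0.21 ± 0.32. The TIF from 179811462 had 12 and 8 against 11 and 9, with 0.52 ± 0.59, and that from 179807009, with 4 and 11 against 28 and 5, was not tested.

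GABARAPL1 and WIPI1 each had 1 TIF, from an annotated start to an annotated end. That of GABARAPL1 had 10 and 15 pairs in DMSO and 23 and 7 after imatinib, with a log2 fold change of 0.74 ± 0.52 and an adjusted p of 0.39, and 0.23 without the first imatinib library. That of WIPI1, which ran over 36.2 kb, had 7 and 8 against 9 and 10 pairs, 17.3% of the pairs of the gene, and was too thin to be tested.

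FOXO3 was the gene, of those with more than 5 pairs, with the highest share of 3′ ends before A-rich sequence. Of its 68 pairs 48, or 70.6% (95% Wilson interval 58.9 to 80.1), had 7 or more A in the 10 bases after the 3′ end, against 7.82% to 9.80% of all pairs in each library. In the other genes with more than 5 pairs this share was 29.5% for MAP1LC3B, 11% for BNIP3, 6.74% for BNIP3L and under 2% for the rest. By library, the share in FOXO3 was 80.0% and 84.6% in DMSO and 81.1% and 23.1% after imatinib, so the second imatinib library stood apart from the other 3.

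**Figure D5:**
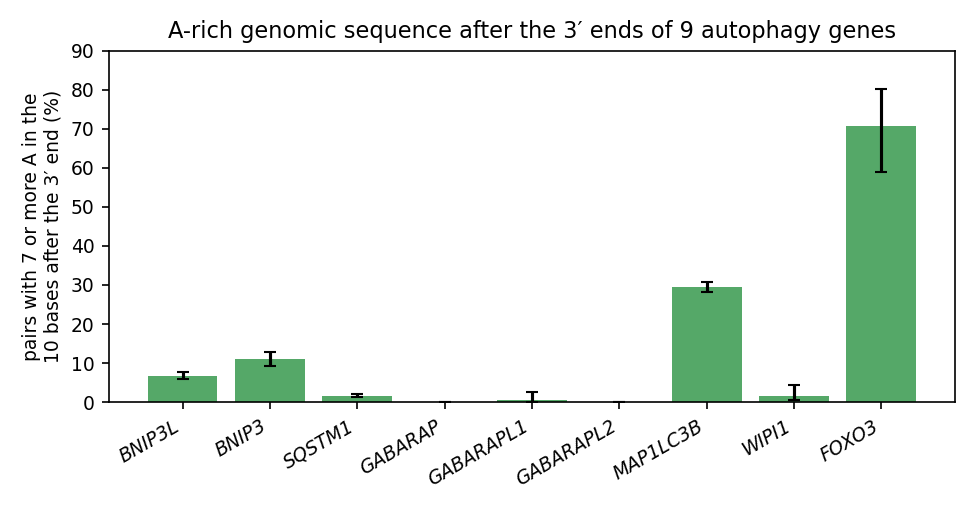
Percent of the read pairs of each gene whose 3′ end is followed by 7 or more A in 10 genomic bases, with 95% Wilson intervals that cover counting error only. FOXO3 stands at 70.6% and MAP1LC3B at 29.5%, and the other genes lie at 11% or lower (ULK1, with 5 pairs, is left out).

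The most used 3′ end of FOXO3, at 108680751, is exactly the annotated last base of the transcript FOXO3-203, was followed by 10 A and gave 0 and 8 pairs in DMSO and 16 and 2 after imatinib. The next, at 108684767, 7 bp from the annotated end of the canonical transcript FOXO3-202, has AATAAA 21 bases before it, was followed by 2 A, and gave 1 and 1 pairs in DMSO against 7 and 10 after imatinib. Both windows are laid out as for MAP1LC3B, at chr6:108680732-108680761 and chr6:108684748-108684777.
FOXO3 end of FOXO3-203: ttttaaggagaaagaaaaggAAAAAAAAAA
FOXO3 end of FOXO3-202: ataaagcatcagtgacactcTATCTTACTC
Without the pairs followed by 7 or more A, FOXO3 kept 20 pairs, 1 and 2 in DMSO and 7 and 10 after imatinib, while BNIP3L kept 2683 of 2877 pairs and WIPI1 193 of 196. The fit was repeated on pairs that passed both this filter and the distance limit for TIFs, 300 bp to 2 Mb between the ends. In it FOXO3 had too few pairs to be tested, and BNIP3L and WIPI1 were still called, with log2 fold changes of 1.64 and 1.32.

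Promoter sequences of 300 bases, 250 before and 50 after the start in RefSeq on GRCh38.p14, were found for 9 of the 10 genes. They were 14 promoters in all, and none was found for BNIP3L. In BNIP3, GABARAP, GABARAPL1, GABARAPL2, MAP1LC3B, WIPI1 and SQSTM1 the most used start was exactly a RefSeq start. The letters GTAAACA, a motif of FOXO factors, were in none of the 14 on either strand, where 3.42% of all 35116 promoters held them. The letters CACGTG, the E-box of many bHLH factors, were in that of BNIP3 alone, against 7.26% of all promoters, and CCAAT was in those of BNIP3 and WIPI1, against 34.6%. These are matches of letters in 1 window per start and say nothing of binding.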

How the data were processed

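TIF-Seq2 was run on 2 DMSO and 2 imatinib replicates of K562. Per the labels and the methods of the study, the authors trimmed reads with cutadapt 1.16, aligned both ends to hg38 with STAR 2.5.3a, removed PCR copies by UMI, and deposited counts of read pairs per combination of end positions, which are raw counts without normalization. The tables still held the pairs whose 3′ end is followed by A-rich sequence. A file of PacBio transcript models was not used.

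Read pairs were summed per Gencode v44 gene (both ends on the strand, within 1 kb of the body). For TIFs, pairs were left out where at least 7 of the 10 bases following the 3′ end are A, tags were normalized by a power law (exponent 1.25, total 1000000, fitted over 10 to 1000 tags), kept at 1 normalized count in at least 2 libraries and joined within 10 bp, and clusters 300 bp to 2 Mb apart were linked by at least 4 pairs. Differences were tested with edgeR 4.0.16 in R 4.3.3 (quasi-likelihood, robust fit, TMM factors over the deposited totals, filterByExpr) and usage with its diffSpliceDGE, each adjusted by Benjamini-Hochberg over all genes, TIFs or sites and called under 0.05. For start and site usage, positions of a gene within 200 bp were joined. CPM are scaled by the TMM factors.

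Library totals ran from 2263121 to 5135829 pairs. Wilson intervals at 95% cover counting error only. The counts of replicates differed by a chi-square of 9.38 (DMSO) and 15.3 (imatinib) per degree of freedom, so no library repeats another. The labels name the replicates but no batch, and p-values measure the spread between these samples. Tested on simulated data with log2 changes of 2, the gene test called 86.5% of 200 changed genes, the TIF test 58.5% of 200 changed TIFs and the usage test 31.4% of 159. False calls numbered 5, 2 and 7, the last counted only in genes without a changed TIF. The simulated libraries were drawn independently, with a single dispersion for all genes or all TIFs. These rates therefore do not give the power in the real data, or for smaller changes.

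The genes, lists and tests were chosen with earlier results of these data known. Named were all 10 genes, the called genes among 73 other autophagy genes (up to 6 in each direction), per gene the 4 TIFs with the most pairs and every called TIF, and the 5 genes nearest BNIP3L. Other scaling, filters, margins, clustering, DESeq2 1.42.0, a replicate block and leaving out each library were tried.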

Additional observations from a re-analysis of the deposited data

How the results depend on the processing

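Of the 10 genes 3 were called, against 1 with DESeq2, 1 with the replicate block and 1 to 4 when each library was left out, and BNIP3L was called in every alternative. Leaving out a library leaves 1 sample in a condition, which is then assumed to vary like the other condition. Of the 60 other autophagy genes 6 were called, against 4 to 18 on leaving out a library. Of the TIFs of the 10 genes 8 were called, against 5 with DESeq2, 3 with the block, 3 to 10 on leaving out a library, 5 with tags counted at least 2 times in place of the power law and 5 with a log2 fold change beyond 1.5 also required. The usage test called 1 TIF, against 0 with the block (4 at an unadjusted p under 0.05 in edgeR), 0 to 1 on leaving out a library (2 to 6 at an unadjusted p under 0.05 where it was 0) and 0 for poly(A) sites summed over starts (1 at an unadjusted p under 0.05). The causes were not tested. The replicate numbers are shared by the conditions, but the labels tie them to no batch, and the deviations of same-numbered libraries from their condition means correlated at -0.236 across genes. Under the block the adjusted p was 0.074 for WIPI1 and 0.068 for FOXO3. With the numbers crossed, chosen after seeing the data, 20 of the other autophagy genes and 14 TIFs were called. Over all genes the 1800 calls were 2736 with no filter on low counts, 1148 with the block, 3723 with the numbers crossed, 1180 beyond 1.5 and 820 to 3955 on leaving out a library. The 1853 TIF calls over all genes were 1209 with DESeq2, 3096 with no filter, 986 with the block, 4175 crossed and 700 to 3570 on leaving out a library, and the 243 usage calls were 66 with the block, 160 with clusters joined within 20 bp, 367 crossed and 1 to 219 on leaving out a library.

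Directions turned only in values that were not called. When each library was left out, the log2 fold change ran from -0.73 to 0.13 for BNIP3, -0.082 to 0.30 for GABARAPL1, -0.15 to 0.38 for GABARAPL2 and -0.33 to 0.067 for MAP1LC3B, which was 0.011 when A-rich 3′ ends and pairs outside the distance limit of TIFs were removed in 1 step. For TIFs it ran from -0.51 to 0.30 for BNIP3 131981923 to 131967687 (0.076 with at least 2 tags), -0.55 to 0.69 for 131981923 to 131968079, -0.045 to 0.93 for 131981956 to 131967687, -0.013 to 0.52 for MAP1LC3B 87392336 to 87404773 and -0.25 to 1.02 for 87392336 to 87403396. The usage of that last TIF ran from -0.15 to 0.69, that of BNIP3L 26383039 to 26413120 from -0.32 to 1.13 and that of SQSTM1 179811462 to 179837252 from -0.43 to 0.41 (0.0048 with the numbers crossed). Depth leaves ULK1 untested and FOXO3 untested under that joint filter.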
